A study of Arabidopsis thaliana with 12 samples.

Results

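The cytosolic ribosomal protein genes described here are a list of 60 Arabidopsis thaliana loci that encode proteins of both subunits of the cytosolic ribosome, and 56 of them were among the 12905 genes of the deposited count table. Membership was set by locus identifier without a threshold on measured values, but the list was chosen with earlier results of these data known. Of the measured members, 37 encode 60S proteins and 19 encode 40S proteins, and they cover 40 of the 41 protein families on the list. RPL10B (AT1G26910), RPL16A (AT2G42740), RPL23AB (AT3G55280) and RPS5B (AT2G37270) were not analysed here. All samples were whole seedlings of wild-type accession Col-0, 2 weeks old, grown on salt medium with sucrose and equilibrated in water. They were then transferred to cycloheximide (CHX) at 0, 1, 10 or 100 µM and kept in the light (30 µE) for 2 h. CHX stops elongation by cytosolic ribosomes. Each dose had 3 libraries, made by bulk MARS-seq, which counts reads from the 3′ ends of polyadenylated RNA. For other assays the study describes biological replicates of several whole seedlings each. Neither the labels nor the account of the sequencing says so for these libraries, so the p-values reflect the spread among these samples.

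Ribosomal proteins wrap and order the ribosomal RNA of each subunit, and the cell needs them in matched amounts. In Arabidopsis each protein is encoded by a small family of genes whose members are often expressed side by side in dividing and growing tissue. Promoters of plant ribosomal protein genes are known to be rich in the telo-box and in site II elements, and translation of their mRNAs is known to respond to the TOR kinase pathway, in which S6 kinases phosphorylate ribosomal protein S6.

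Promoters of L6 and L4 genes are shown for their log2 changes at 100 µM. Among members with ample counts and without uneven replicates, these families held the lowest change and those closest to 0. Each window covers 250 bases before and 50 bases after the start of the gene in the RefSeq annotation of TAIR10.1 and reads 5′ to 3′ on the strand of the gene. Capitals mark matches to the telo-box AAACCCTA or to site II (TGGGCC or TGGGCT) on either strand.
AT1G74060, L6, chr1:27851388-27851687, strand -: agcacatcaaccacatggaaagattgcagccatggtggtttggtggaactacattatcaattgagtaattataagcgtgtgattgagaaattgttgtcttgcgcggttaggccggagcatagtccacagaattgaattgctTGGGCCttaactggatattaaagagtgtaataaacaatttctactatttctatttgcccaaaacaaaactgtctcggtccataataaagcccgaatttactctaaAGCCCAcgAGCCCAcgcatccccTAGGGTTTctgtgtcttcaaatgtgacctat
AT1G18540, L6, chr1:6378531-6378830, strand -: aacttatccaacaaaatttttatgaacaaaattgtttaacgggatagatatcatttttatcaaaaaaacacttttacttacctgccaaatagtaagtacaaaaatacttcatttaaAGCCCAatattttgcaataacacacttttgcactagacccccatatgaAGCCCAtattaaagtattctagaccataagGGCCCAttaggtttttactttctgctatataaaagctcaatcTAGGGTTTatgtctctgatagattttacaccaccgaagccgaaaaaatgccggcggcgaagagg
AT3G09630, L4, chr3:2953443-2953742, strand +: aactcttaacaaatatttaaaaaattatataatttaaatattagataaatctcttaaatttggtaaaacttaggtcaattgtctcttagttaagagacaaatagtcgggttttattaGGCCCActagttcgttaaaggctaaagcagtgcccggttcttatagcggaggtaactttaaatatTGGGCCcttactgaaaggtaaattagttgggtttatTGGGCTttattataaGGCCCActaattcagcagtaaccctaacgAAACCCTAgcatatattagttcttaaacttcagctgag
AT5G02870, L4, chr5:657425-657724, strand +: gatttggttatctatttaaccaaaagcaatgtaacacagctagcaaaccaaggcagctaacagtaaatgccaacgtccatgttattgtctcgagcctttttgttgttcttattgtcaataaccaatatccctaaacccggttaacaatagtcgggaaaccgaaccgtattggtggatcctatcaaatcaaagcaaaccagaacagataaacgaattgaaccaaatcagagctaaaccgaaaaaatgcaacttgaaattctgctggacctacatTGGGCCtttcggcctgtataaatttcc

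The window of AT1G74060 holds 1 telo-box and 3 site II matches, as does that of AT1G18540, whereas the window of the third L6 gene, AT1G74050, holds neither. AT1G74050 is not shown because it lies 208 bases downstream of AT1G74060 on the same strand, and the 42 bases of its window farthest from its start are inside the annotated AT1G74060. AT3G09630 has 1 telo-box and 4 site II matches, and AT5G02870 has 1 site II match alone. Among the 56 measured members, 29 promoters (51.8%) hold a telo-box and 46 (82.1%) hold site II, against 6.22% and 21.7% of the promoters of all 27443 protein-coding genes. At least 2 site II matches, overlapping ones included, were found in 71.4% of members and 13.7% of all genes, and both elements together in 41.1% and 2.2%. A match says only that these letters are present.

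Total counts per library lay between 1073063 and 3724564. Genes outside the list that were called at least 2-fold higher at 100 µM took 10.8% to 12.9% of the counts in untreated libraries, against 36.5% to 44.4% (1 µM), 64.0% to 68.5% (10 µM) and 71.9% to 73.3% (100 µM). Levels are therefore given as CPM (counts scaled to a fixed library size) after TMM scaling, with a median log2 change over all genes of 0.02 in each comparison with 0 µM, and every rise or fall is relative to that median gene. Scaling to total counts moved this median to −0.31, −0.82 and −1.01 at 1, 10 and 100 against 0 µM, and scaling to 10 reference genes moved it to 0.32, 0.17 and 0.62. In whole seedlings fewer cells of a type and less RNA per cell cannot be told apart. Markers of shoot (5 genes) and root (6 genes) were both detected, and their summed shares moved with dose. Shoot markers dropped from 2.48% to 2.84% of the untreated counts to 0.686% to 0.725% under the highest dose. Root markers went from 0.00799% to 0.0120% to 0.00427% to 0.00500%. Such a share also drops for an unchanged gene when other genes take up more of a library. After TMM scaling the median log2 change at 100 against 0 µM was −0.84 for shoot markers (4 of 5 lower). It was −0.14 for root markers (2 of 6 lower, 1 higher). The part of these markers in the results was not tested.

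Of the measured members, 6 differed strongly between replicates of the same dose, as picked by a rule on the libraries of 0 and 100 µM. AT5G39740 (L5), AT2G44120 (L7), AT1G33120 and AT1G33140 (L9), AT2G39460 (L23a) and AT3G04840 (S3a) were each over 1.5 log2 units higher in replicate 1 than in replicate 3 at 0 µM, and over 1.5 higher in replicate 1 than in the mean of the other two at 100 µM. Their summed level was 315 CPM in replicate 1, 216 in replicate 2 and 58.2 in replicate 3 at 0 µM. It was 166, 23.2 and 15.2 CPM at 100 µM, while the libraries of 1 µM spanned 60.7 to 72.9 CPM and those of 10 µM 107 to 153 CPM. For all 6 genes the libraries of 0 and 100 µM overlapped. The same rule, set after the values were seen, picked 64 of the 8451 genes (0.757%) with a mean of at least 5 CPM. A further 8 members had a mean under 10 CPM. The remaining 42 members, neither uneven nor under 10 CPM, are called the well counted members below. The name thus stands for both rules and not for depth alone. The summed level of these 42 lay between 16830 and 20250 CPM at 0 µM and between 9393 and 9745 CPM at 100 µM.

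**Figure D1:**
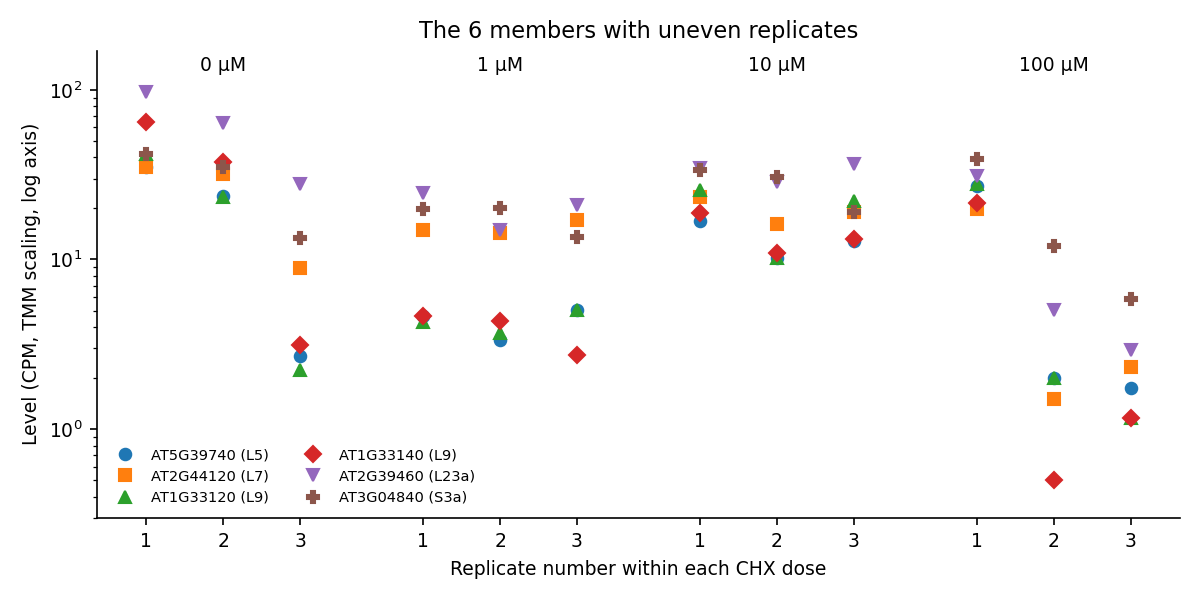
Level in CPM after TMM scaling (log axis) of the 6 members whose replicates were uneven, by replicate number within each CHX dose, with 1 symbol per gene. The genes were picked for a high replicate 1 at 0 µM and 100 µM, and their summed levels at 1 µM lay between 60.7 and 72.9 CPM.

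As a share of all counts, the ribosomal protein mRNAs dropped stepwise with the dose of CHX. They took 2.65%, 3.05% and 2.48% of the counts in the 3 libraries at 0 µM, and 1.92%, 1.82% and 1.58% at 1 µM. At 10 µM the shares were 0.787%, 1.03% and 0.900%, and at 100 µM they were 0.738%, 0.685% and 0.643%. No 2 doses overlapped, although an exact permutation test of 3 against 3 cannot give a two-sided p below 0.1. The means were 2.73% ± 0.293, 1.78% ± 0.173, 0.906% ± 0.123 and 0.688% ± 0.0478 (SD, n = 3). The exact 95% binomial interval of a library's share was narrow beside the spread of replicates, from 0.633% to 0.653% in 100 µM replicate 3. A share of all counts also drops when other genes take up more of a library. Of the counts that remained once the genes called higher at 100 µM had been left out, members took 3.08% ± 0.297, 2.92% ± 0.104, 2.70% ± 0.187 and 2.51% ± 0.113, and here neighbouring doses overlapped while 0 and 100 µM did not. The ratio of 60S to 40S counts was 1.45 ± 0.0424, 1.52 ± 0.0636, 1.47 ± 0.0546 and 1.55 ± 0.0457 in order of dose, and its lowest value at 100 µM (1.51) was above its highest at 0 µM (1.48).

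**Figure D2:**
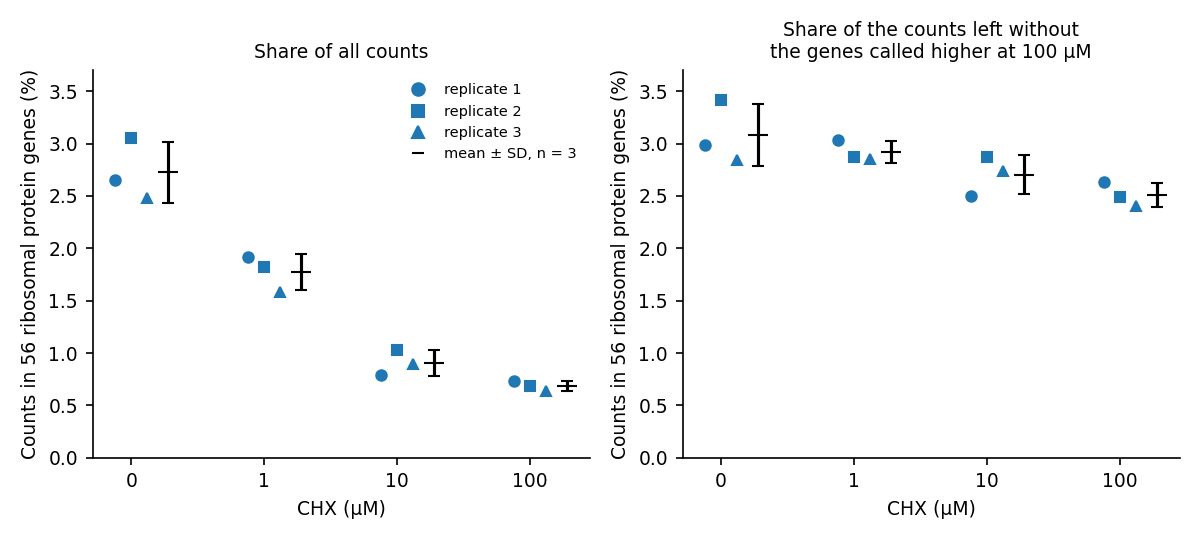
Percent of counts in the 56 measured ribosomal protein genes by CHX dose, of all counts (left) and of the counts left without the genes called at least 2-fold higher at 100 µM (right). Symbols are the libraries of replicates 1 to 3, and bars give the mean ± SD of 3. The left shares run from 3.05% down to 0.643% without overlap between doses, and the right means from 3.08% to 2.51%.

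At the highest dose most ribosomal protein genes fell. In edgeR 42 of 56 members fell by the adjusted p alone and 27 fell at least 2-fold, none rose, and 14 passed in neither direction. Over all genes 21.3% were called lower by the adjusted p, 14.9% were called at least 2-fold lower and 27.6% were called higher. The median log2 change of the members was −1.06, which leaves 47.9% of the untreated level, and the members ranged from −2.64 to 0.34 where the median of all genes was 0.02. In 42 members all 3 libraries at 100 µM lay below all 3 at 0 µM, as they did for 24.3% of all genes, and in none did they lie above. Among 60S members 27 of 37 fell (15 at least 2-fold, median −1.06), and among 40S members 15 of 19 fell (12 at least 2-fold, median −1.07). Of the 42 well counted members 36 fell (21 at least 2-fold, median −0.97). Without 0 µM replicate 1 and 100 µM replicate 1, 47 members fell, 32 of them at least 2-fold, with a median of −1.20. With scaling to the reference genes 20 fell and 7 fell at least 2-fold (median −0.50), and with total counts 52 fell at least 2-fold (median −2.10). By the adjusted p alone, 8.81% of all genes were called lower with the reference genes and 49.7% with total counts.

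**Figure D3:**
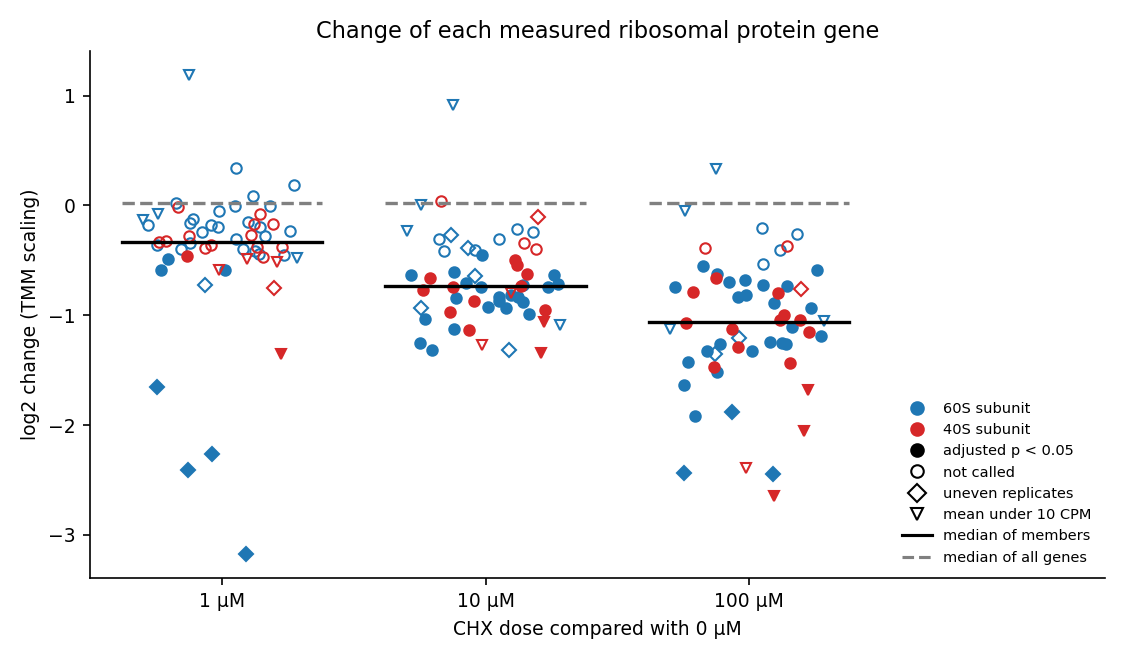
Log2 change of each of the 56 measured members at 1, 10 and 100 µM against 0 µM (TMM scaling), with 60S members in blue and 40S members in red. Filled symbols passed an adjusted p of 0.05 in edgeR, diamonds are the 6 uneven members and triangles those under 10 CPM. Solid lines are the medians of members (−0.33, −0.73 and −1.06) and dashed lines those of all genes (0.02 at each dose).

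Transcripts for the stalk of the large subunit, which recruits elongation factors, fell in all 3 listed members that encode its proteins. Stalk genes outside the list are not covered by this count. The P1 gene AT1G01100 stood at 691, 1076 and 859 CPM at 0 µM, and at 342, 259 and 242 CPM at 100 µM. All treated libraries were lower, by −1.64 ± 0.22 on the log2 scale (SE, adjusted p = 1.53e-06 in edgeR), or 3.11-fold. AT2G37190 encodes L12, a protein of the stalk base, and went from 341, 417 and 335 CPM to 137, 126 and 119 CPM, again without overlap (−1.52 ± 0.17, adjusted p = 1.65e-07). It stood at 295, 300.3 and 266 CPM under 1 µM and 142, 187 and 172 CPM under 10 µM. The P0 gene AT3G09200, whose product anchors the stalk, changed by −0.63 ± 0.19 (adjusted p = 0.00929). The difference between these 3 genes was not tested.

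The L6 family held the well counted member with the lowest change. AT1G74060 (chr1:27849217-27851437) stood at 223, 223 and 226 CPM untreated and 180, 163 and 136 CPM under 1 µM. It went on to 74.9, 103 and 91.4 CPM under 10 µM and 56.4, 54.9 and 66.7 CPM under 100 µM. Its doses were separate at each step, and at 100 µM it was 3.77-fold lower than at 0 µM (−1.92 ± 0.18, adjusted p = 1.07e-08 in edgeR). Its neighbour AT1G74050 (chr1:27847038-27849008) went from 151, 181 and 209 to 79.4, 70.5 and 74.9 CPM (−1.27 ± 0.17, adjusted p = 1.93e-06). Between these it stood at 143, 125 and 130.3 CPM under 1 µM and 95.5, 97.7 and 99.4 CPM under 10 µM. The more distant paralog AT1G18540 (chr1:6376639-6378580) stood at 228, 265 and 254 CPM untreated and 129, 145 and 150 CPM at 100 µM (−0.81 ± 0.18, adjusted p = 0.0006). Under 1 µM AT1G18540 was at 271, 228 and 223 CPM and overlapped the untreated libraries, and under 10 µM it was at 149, 221 and 175 CPM. The 3 L6 genes share runs of at most 10 identical bases in the last 500 bases of their transcripts, where MARS-seq reads fall.

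The 2 L4 genes, which encode a protein that lines the exit tunnel, changed least among well counted members. The gene AT3G09630 (chr3:2953693-2955748) stood at 281, 302 and 314 CPM at 0 µM and at 210, 281 and 258 CPM at 100 µM. AT5G02870 (chr5:657675-659800) stood at 255, 305 and 314 CPM and at 232, 266 and 261 CPM. AT3G09630 measured 288, 302 and 304 CPM under 1 µM and 262, 241 and 255 CPM under 10 µM, and AT5G02870 303, 279 and 289 CPM under 1 µM and 218, 233 and 255 CPM under 10 µM. The libraries of AT5G02870 overlapped and those of AT3G09630 touched without overlap, at 281 CPM, and neither gene was called, with log2 changes of −0.26 ± 0.16 (adjusted p = 0.195) and −0.20 ± 0.16 (adjusted p = 0.314) in edgeR. Scaling to the reference genes turned them to 0.34 and 0.39, and total counts made them −1.31 and −1.25, both called.

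**Figure D4:**
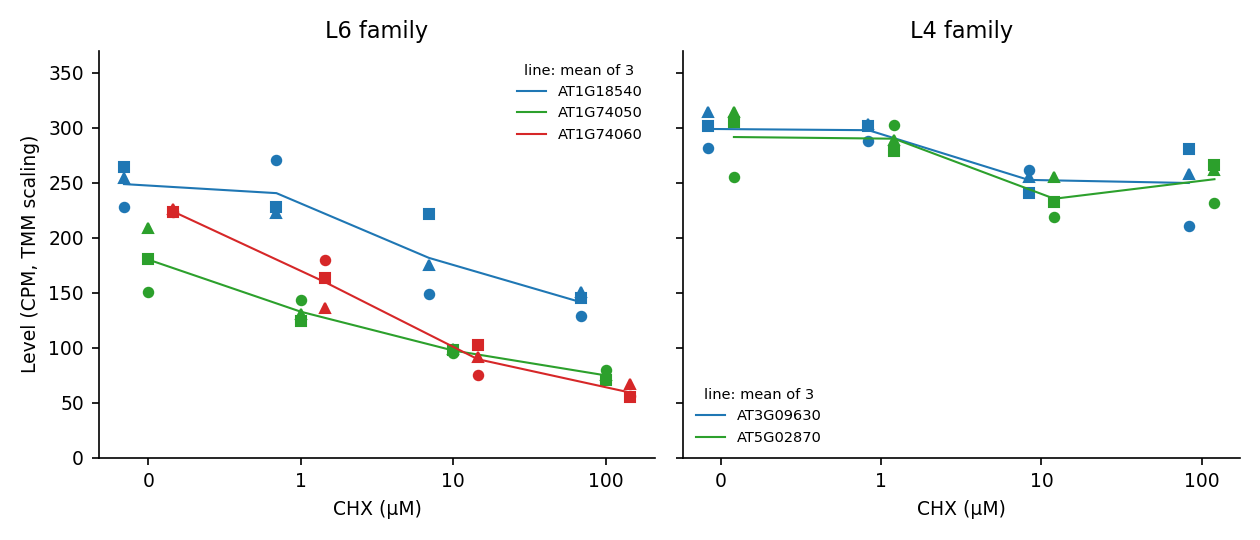
Level in CPM after TMM scaling of the 3 L6 genes (left) and the 2 L4 genes (right) by CHX dose. Circles, squares and triangles are replicates 1, 2 and 3, and lines join the means of 3 libraries. AT1G74060 dropped from about 224 to 59.3 CPM on average, while both L4 genes stayed between 210 and 314 CPM.

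Other 60S members lay between these extremes. The L3 gene AT1G43170, whose product sits near the peptidyl transferase centre, fell by −1.33 ± 0.22 (adjusted p = 2.86e-05) and was the member with the lowest adjusted p at 100 against 10 µM. The L7 genes AT2G01250 and AT3G13580 fell side by side. AT2G01250 went from 216, 216 and 274 to 81.8, 79.6 and 102 CPM (−1.42 ± 0.17, adjusted p = 4.92e-07), and AT3G13580 from 190, 207 and 169 to 85.8, 70.0 and 70.2 CPM (−1.33 ± 0.17, adjusted p = 7.11e-07). Under 10 µM they had reached 102, 121 and 121 CPM and 95.5, 105 and 97.2 CPM. Both fell without overlap. Both L15 genes fell, AT4G17390 from 432, 593 and 492 to 231, 245 and 228 CPM (−1.11 ± 0.17, adjusted p = 1.42e-05) and AT4G16720 from 503, 585 and 601 to 332, 346 and 373 CPM (−0.68 ± 0.17, adjusted p = 0.00168). At the middle doses AT4G17390 stood at 440.2, 439 and 368 CPM under 1 µM and 219.8, 279.6 and 264 CPM under 10 µM. AT4G16720 stood at 477, 553 and 446 CPM under 1 µM and 317, 387 and 307 CPM under 10 µM. STV1 (AT3G53020), an L24 gene known for its role in translation downstream of upstream reading frames, changed by −0.59 ± 0.18 (adjusted p = 0.0091). SAC52 (AT1G14320), which encodes an L10 protein placed late in subunit assembly in yeast, was not called at −0.40 ± 0.17 (adjusted p = 0.0566).

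Of the uneven 60S members, 3 of 5 passed the test at 100 µM, and their values depended on single libraries. RPL23AA (AT2G39460), an L23a gene whose product lies at the tunnel exit, stood at 96.6, 63.9 and 27.7 CPM at 0 µM and at 31.0, 5.04 and 2.92 CPM at 100 µM. Treated replicate 1 lay above untreated replicate 3, and the other treated libraries lay below all untreated ones (−2.44 ± 0.51, adjusted p = 0.000428 in edgeR), and without 100 µM replicate 1 the change was −3.95. At the middle doses it stood at 24.6, 15 and 21.0 CPM under 1 µM and 34.5, 28.7 and 36.7 CPM under 10 µM. PGY2 (AT1G33140), an L9 gene known from leaf polarity mutants, stood at 64.8, 37.6 and 3.13 CPM and at 21.4, 0.504 and 1.17 CPM. Its change of −2.45 ± 0.78 (adjusted p = 0.0132) became −5.38 without 100 µM replicate 1, and the call ended without 0 µM replicate 1 (−1.54, adjusted p = 0.15), 100 µM replicate 2 (−1.79, adjusted p = 0.0796) or 100 µM replicate 3 (−1.91, adjusted p = 0.0625). PGY2 measured 4.63, 4.33 and 2.72 CPM under 1 µM and 18.9, 10.9 and 13.2 CPM under 10 µM. Its paralog AT1G33120 stood at 41.9, 23.2 and 2.24 CPM and at 27.8, 2.01 and 1.17 CPM, and was not called (−1.35 ± 0.75, adjusted p = 0.147). AT1G33120 measured 4.27, 3.67 and 5.06 CPM under 1 µM and 25.5, 10.2 and 22.1 CPM under 10 µM. RPL5B (AT5G39740), whose product binds 5S ribosomal RNA, stood at 35.0, 23.8 and 2.68 CPM and at 26.997, 2.01 and 1.75 CPM, and was not called either (−1.21 ± 0.70, adjusted p = 0.165). RPL5B measured 4.63, 3.33 and 5.06 CPM under 1 µM and 16.9, 10.2 and 12.8 CPM under 10 µM, so that these 3 genes were lower under 1 µM than under 10 µM in every library. Without both replicates 1 AT1G33120 and AT5G39740 were called at −2.83 (adjusted p = 0.0101) and −2.68 (adjusted p = 0.00666). The L7 gene AT2G44120 passed at −1.88 ± 0.57 (adjusted p = 0.00893), and the uneven 40S member AT3G04840 (S3a) did not (−0.76 ± 0.46, adjusted p = 0.177).

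In the small subunit the S6 genes encode the substrate of S6 kinases. RPS6B (AT5G10360, EMB3010, chr5:3258404-3260254) stood at 740, 747 and 660 CPM at 0 µM and at 299, 292 and 289 CPM at 100 µM. The treated libraries were close together and 2.44-fold lower (−1.29 ± 0.17, adjusted p = 1.63e-06 in edgeR). It stood at 583, 526 and 559.8 CPM under 1 µM and 309, 419 and 447 CPM under 10 µM, each time below the untreated libraries. RPS6A (AT4G31700, RPS6, chr4:15345979-15347804) stood at 302, 290 and 217 CPM and at 199, 104 and 93.0 CPM. Here 100 µM replicate 1 stood above the other two, yet all treated libraries were below the untreated ones (−1.04 ± 0.23, adjusted p = 0.00067), and the change was −1.45 without 100 µM replicate 1. RPS6A stood at 244, 245 and 228 CPM under 1 µM and 189, 232 and 195 CPM under 10 µM, and both doses overlapped the untreated libraries. The 2 genes share a run of 37 identical bases in the transcript tail, so reads could be split between them.

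Further 40S members that fell at least 2-fold with high counts were the S19 gene AT3G02080 (−1.47 ± 0.17, adjusted p = 2.42e-07), the S7 gene AT1G48830 (−1.43 ± 0.24, adjusted p = 3.42e-05) and the S8 gene AT5G20290, which went from 1494, 1765 and 1548 to 692, 740 and 733 CPM (−1.15 ± 0.16, adjusted p = 4.2e-06). RPS10B (AT5G41520), RPS15 (AT1G04270), the S9 gene AT5G15200 and the S2 gene AT2G41840 fell by 1.12, 1.04, 1.07 and 1.00 on the log2 scale. PFL (AT1G22780), an S18 gene named for the pointed first leaves of its mutant, stood at 194, 243 and 188 CPM and at 134, 144 and 115 CPM (−0.66 ± 0.18, adjusted p = 0.00371). At the middle doses PFL measured 189.7, 172 and 152 CPM under 1 µM and 112, 147 and 114 CPM under 10 µM. Its paralog RPS18C (AT4G09800) stood at 9.53, 14.4 and 6.26 CPM and at 3.18, 2.52 and 3.51 CPM (−1.68 ± 0.43, adjusted p = 0.00252). Under 10 µM RPS18C was at 5.64, 3.96 and 4.42 CPM. Both fell without overlap, but RPS18C rested on 4, 5 and 6 counts in the treated libraries and its difference from PFL was not tested.

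Among 40S members P40 (AT1G72370), the Sa protein, and the S3 gene AT2G31610, whose product lies at the entry of the mRNA channel, were not called. P40 stood at 537, 796 and 677 CPM untreated and at 477, 591 and 481 CPM at 100 µM, with overlap (−0.37 ± 0.18, adjusted p = 0.0988 in edgeR). P40 measured 679.8, 692 and 535 CPM under 1 µM and 478, 593 and 511 CPM under 10 µM. AT2G31610 stood at 83.3, 91.5 and 76.0 CPM and at 77.02, 57.9 and 57.9 CPM, and only 100 µM replicate 1 reached into the untreated range (−0.39 ± 0.17, adjusted p = 0.0705). AT2G31610 measured 83.3, 82.7 and 82.1 CPM under 1 µM and 81.9, 84.2 and 91.4 CPM under 10 µM, close to the untreated level. AT2G31610 was called at −0.53 (adjusted p = 0.0239) without that library and P40 at −0.51 (adjusted p = 0.0363) without 0 µM replicate 1. With scaling to the reference genes both turned upward, to 0.18 and 0.21, without passing.

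Several of the lowest and highest log2 changes belonged to members with few counts. AT2G17360 (S4) had 13, 9 and 15 counts at 0 µM and 3, 1 and 0 at 100 µM, or 4.13, 5.64 and 6.71 against 2.38, 0.504 and 0 CPM. It was called at −2.64 ± 0.71 (adjusted p = 0.00382), and changed by −4.09 without 100 µM replicate 1 and −2.05 without replicate 3. At the middle doses it stood at 3.20, 3.33 and 5.06 CPM under 1 µM and 4.31, 2.97 and 1.77 CPM under 10 µM. AT5G39850 (S9) stood at 8.90, 9.40 and 10.7 CPM and at 5.56, 0.504 and 1.75 CPM (−2.05 ± 0.53, adjusted p = 0.00277), or −3.09 without 100 µM replicate 1. AT5G39850 measured 7.47, 8.33 and 4.28 CPM under 1 µM and 3.98, 2.64 and 4.86 CPM under 10 µM. AT3G48930 (S11) had 17 counts over the untreated libraries and 2 over the treated ones, at 3.50, 2.51 and 0.894 CPM against 0.794, 0 and 0.585 CPM. Its ratio of 0.166 had an exact 95% counting interval of 0.0186 to 0.698, and it was not called (−2.39 ± 1.01, adjusted p = 0.0558). It measured 0.712, 1.67 and 2.33 CPM under 1 µM and 1.66, 0.66 and 0.442 CPM under 10 µM. At the other end, ATL5 (AT3G25520), an L5 gene, stood at 1.59, 3.13 and 5.37 CPM and at 0, 4.03 and 4.68 CPM (−0.05 ± 0.69, adjusted p = 0.961). ATL5 measured 3.91, 3.67 and 1.56 CPM under 1 µM and 1.66, 4.29 and 3.97 CPM under 10 µM. SAG24 (AT1G66580), an L10 gene whose name refers to senescence, was the 1 member with a positive value, at 3.50, 3.13 and 3.58 CPM against 0.794, 5.04 and 6.43 CPM (0.34 ± 0.50, adjusted p = 0.61). Total counts gave SAG24 a change of −0.72, and the reference genes gave ATL5 0.56. Both overlapped between 0 and 100 µM, and a difference was not detectable at this depth. At 1 µM SAG24 stood at 8.90, 6.67 and 8.17 CPM, and at 10 µM at 6.96, 8.25 and 3.97 CPM, above all untreated libraries both times, but it passed at neither dose (1.19 ± 0.44 and 0.91 ± 0.44, adjusted p = 0.0505 and 0.1).

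At 1 against 0 µM 9 members fell, 5 of them at least 2-fold, none rose, and 47 passed in neither direction. Over all genes 7.68% were called lower, 3.12% at least 2-fold lower and 17.2% higher. The median of the members was −0.33 beside 0.02 for all genes, and in 19 members all libraries at 1 µM lay below those at 0 µM, as in 15.1% of all genes. AT1G33140, AT5G39740, AT1G33120 and AT2G39460, at −3.17, −2.26, −2.41 and −1.65, are uneven members, and their libraries at 1 µM lay near untreated replicate 3 in level. The others were RPS18C (4.63, 3.33 and 3.50 CPM, −1.35 ± 0.37, adjusted p = 0.01) and the well counted genes AT2G01250, AT3G13580, AT1G74060 and AT3G02080, which fell by 0.59, 0.59, 0.49 and 0.46 on the log2 scale. AT2G01250 stood at 162, 152 and 157 CPM at 1 µM, below each untreated library, and AT3G13580 at 123, 133 and 121 CPM, also below. The count of lower calls depended on single libraries of both doses. With untreated replicate 1, 2 or 3 left out there were 4, 3 and 6, and with replicate 1, 2 or 3 of 1 µM left out 4, 5 and 5, and the calls at least 2-fold lower numbered 1, 2, 5, 3, 3 and 3 in the same order. Under DESeq2 2 were at least 2-fold lower, with the reference genes 4 fell, and with total counts 34 fell. With these last 2 scalings 2.32% and 20.6% of all genes were called lower. SAG24 was called higher with the reference genes, with filterByExpr, with only the 2 doses in the fit, and without replicate 1 or 3 of 100 µM.

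At 10 against 0 µM 35 members fell (62.5%) and none rose, beside 19.8% and 26% of all genes. Of the members, 7 fell at least 2-fold (12.5%), near the 12.1% of all genes. The median of the members was −0.73, which leaves 60.1% of the untreated level. All libraries at 10 µM lay below those at 0 µM in 38 members, against 24.1% of all genes. Without 0 µM replicate 2 the calls at least 2-fold lower numbered 4, without both replicates 1 of 0 and 100 µM 13, with the reference genes 3 and with total counts 49. By the adjusted p alone, 14.6% of all genes were called lower with the reference genes and 46.2% with total counts. Of the well counted members 33 of 42 fell at 10 µM, with a median of −0.73.

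Between adjacent doses the step from 1 to 10 µM held more calls than the step from 10 to 100 µM, as it did over all genes. At 10 against 1 µM 18 members fell and 1 rose, beside 12.1% and 15.6% of all genes, with a median of −0.40. The member that rose was AT1G33120 (2.14 ± 0.76, adjusted p = 0.041), 1 of the uneven genes. It was not called with total counts, filterByExpr or DESeq2, nor without untreated replicate 2, any replicate of 1 µM, or replicate 1 or 3 of 10 µM. AT5G39740 joined it with thinned libraries, AT1G33140 as well without untreated replicate 3 or without 100 µM replicate 1, and AT2G39460 and AT3G04840 too, 5 in all, with only the 2 doses in the fit. The median was −0.91 with total counts. The lowest well counted value was that of the L14 gene AT2G20450, which stood at 28.8, 29.3 and 33.1 CPM at 1 µM and at 11.3, 12.5 and 15.9 CPM at 10 µM (−1.21 ± 0.26, adjusted p = 0.00151). The same gene was not called at 100 against 0 µM (−0.53 ± 0.28, adjusted p = 0.13 in edgeR), where its libraries overlapped. At 100 against 10 µM 3 members fell (5.36%), near the 3.75% of all genes, and none rose, beside 4.89%. The median was −0.38, which scaling to the reference genes turned to 0.045. The 3 members were AT1G43170 (−0.91 ± 0.22, adjusted p = 0.0101), AT1G48830 (−0.81 ± 0.24, adjusted p = 0.0397) and AT1G74060 (−0.59 ± 0.18, adjusted p = 0.0429). A lower mean at the higher dose was found for 41 of the 42 well counted members from 1 to 10 µM and for 34 from 10 to 100 µM, and the means of 30 fell at every step. Such counts of means were not taken over all genes. Some members stayed level past 10 µM, such as L19 (AT1G02780) at 624, 795 and 746 CPM against 700, 720 and 759 CPM at 100 µM. The counts of calls between adjacent doses depended on single libraries. The 18 became 10 when replicate 1 or 2 of 1 µM was left out, 7 or 11 when replicate 1 or 3 of 10 µM was, and 42 with total counts. With total counts 34.1% of all genes were called lower at 10 against 1 µM. The 3 became 12, 0 and 0 when replicate 1, 2 or 3 of 100 µM was left out, and 13 without both replicates 1 of 0 and 100 µM. They became 6 without untreated replicate 3, 1 or 5 when replicate 2 or 3 of 1 µM was left out, and 1 when either replicate 2 or 3 of 10 µM was.

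The ratio of 2 genes within a library does not depend on the scaling, and was followed for the 18 pairs of measured members that share a family. In 6 pairs (33.3%) from 4 families the log2 ratio at 100 µM did not overlap that at 0 µM, against 28.6% of 1522 pairs of members from different families, a share near that background. The ratio of AT1G18540 to AT1G74060 in the L6 family was 0.03, 0.24 and 0.17 in untreated seedlings and 0.59, 0.48 and 0.72 under 1 µM. It was 0.99, 1.11 and 0.93 under 10 µM, then 1.18, 1.40 and 1.17 under 100 µM. The doses did not overlap at any step, and the mean shifted by 1.10 from 0 to 100 µM. The other L6 ratios shifted by 0.44 (AT1G18540 to AT1G74050) and −0.67 (AT1G74060 to AT1G74050). The L15 ratio of AT4G16720 to AT4G17390 went from 0.22, −0.02 and 0.29 to 0.52, 0.50 and 0.71. The S18 ratio of PFL to RPS18C shifted by 0.88 and the L9 ratio of AT1G33120 to AT1G33140 by 1.24, both on few counts, and the L9 genes share a run of 49 identical bases. The L4 ratio shifted by −0.07 and the S6 ratio by 0.19, with overlap in both pairs. These ratios are a description and were not tested.

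Other genes of the translation machinery were counted in the same fit at 100 against 0 µM. In that comparison 21.3% of all genes were called lower and 27.6% higher. Of the 109 other genes annotated as cytosolic ribosomal proteins, 77 fell and 1 rose, with a median of −1.18, close to the −1.06 of the members. AT4G02230 (402 ± 29.6 to 91.3 ± 3.84 CPM, SD, n = 3), RPL34 (AT1G69620, −1.73 ± 0.17) and AT3G53430 (−1.56 ± 0.16) fell with the smallest adjusted p, and AT3G04230 rose by 1.39 ± 0.20. Of the 34 nuclear genes for plastid ribosomal proteins, whose products serve the CHX-insensitive ribosomes of the chloroplast, 24 fell and none rose (median −0.84), such as AT5G65220 (−1.78 ± 0.21), RPL4 (AT1G07320, −1.39 ± 0.20) and RPL12-C (AT3G27850, −1.40 ± 0.21). Of 41 cytosolic translation factors, 34 had a negative log2 change (median −0.54). Among the 41, 20 were called lower (48.8%) and 4 higher, the latter a smaller share than over all genes. The elongation factor gene eEF-1Bb1 (AT1G30230) fell by −2.24 ± 0.22 and the eIF5A gene FBR12 (AT1G26630) by −1.42 ± 0.18, whereas the release factor gene ERF1-1 (AT5G47880) rose by 1.55 ± 0.19. The other risers were eIF6A (AT3G55620, 3.49 ± 0.45, from 0.719 to 8.86 CPM), EIF3A (AT4G11420, 0.82 ± 0.16) and EIF4B1 (AT3G26400, 0.67 ± 0.26).

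Ribosome biogenesis factors, which process ribosomal RNA and assemble the subunits, were counted likewise. Of 25 measured, 5 fell (20%) and 2 rose at 100 µM (median −0.42), beside 21.3% of all genes called lower and 27.6% called higher. At 1 µM none fell and 1 rose (median 0.31), beside 7.68% and 17.2% of all genes. AT3G03920, a gene for a protein of small nucleolar particles, fell by −1.13 ± 0.19 and the fibrillarin gene FIB2 (AT4G25630) by −0.98 ± 0.27, and AT1G52930, which encodes a Brix domain protein of rRNA processing, rose by 1.02 ± 0.21. In the TOR pathway 2 of 8 genes fell and 2 rose (median 0.14), near the shares of all genes called lower (21.3%) and higher (27.6%). S6K2 (AT3G08720), a kinase of S6, rose from 21.1 ± 5.27 CPM (SD, n = 3) untreated through 124 and 675 CPM at the middle doses to 1170 ± 102 CPM at the highest (5.81 ± 0.24, adjusted p = 1.21e-14 in edgeR), while the S6 genes themselves fell. The S6 kinase gene AT3G08730 rose by 0.75 ± 0.19, and AT3G51800 (EBP1) and FKBP12 (AT5G64350) fell by 0.74 and 0.77 on the log2 scale. TOR (AT1G50030) had few counts, at 2.95 CPM untreated and 3.56 CPM at 100 µM. Of the 10 reference genes, GAPC2 (−1.25 ± 0.19), ACT8 (−2.69 ± 0.54) and UBQ10 (−0.74 ± 0.19) fell themselves.

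**Figure D5:**
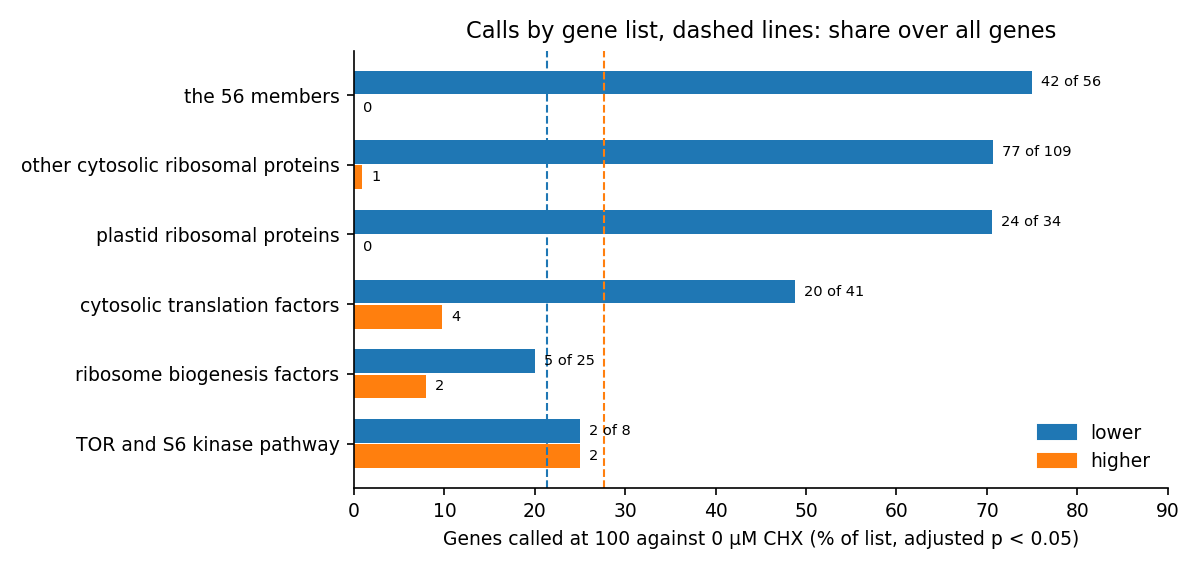
Percent of each gene list called lower (blue) or higher (orange) at 100 against 0 µM CHX by an adjusted p of 0.05 in edgeR, with the number of genes at each bar. Dashed lines mark the share of all 12905 genes called lower (21.3%) or higher (27.6%). The members, the other cytosolic and the plastid ribosomal protein genes stand far to the right of the blue line, at 42 of 56, 77 of 109 and 24 of 34.

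The median change at 100 µM was set beside the promoter elements as a description. The 29 members with a telo-box had a median log2 change of −1.12 and 21 of them fell, and the 27 without had a median of −1.04 and 21 fell. Site II was present in 46 members with a median of −1.05, of which 33 fell, and absent from 10 with a median of −1.26, of which 9 fell. Telo-boxes were found in 47.7% and site II in 75.2% of the promoters of the other cytosolic ribosomal protein genes. The corresponding shares were 56% and 72% for biogenesis factors, 26.8% and 48.8% for translation factors, and 11.8% and 50% for plastid ribosomal proteins.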

How the data were processed

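Total RNA of 12 whole-seedling samples, 3 per CHX dose, was sequenced by MARS-seq. According to the labels and the methods of the study, the authors demultiplexed with bcl2fastq 2.17.1.14, trimmed with cutadapt 1.8.3, aligned with STAR to Araport11, counted with HTSeq, kept genes with at least 5 reads in at least 1 sample and normalized with DESeq2. The deposited counts are whole reads per gene, marked as not filtered by molecular identifiers, so reads of 1 molecule may be counted more than once. The exact intervals treat each read as independent and can be too narrow. They do not cover the spread among replicates. The deposited normalized signal (counts divided by 1 factor per library) and the deposited regularized log2 values were not used.

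Groups came from the sample labels. The study's list of records places this record under another experiment, and the labels, which give CHX doses throughout, were followed. After TMM scaling, the 4 doses of all 12 libraries entered a single quasi-likelihood fit without covariates in edgeR 4.0.16 (R 4.3.3), with genes at 5 counts or more in at least 1 library, which removed none of 12905. A gene was called at a Benjamini-Hochberg adjusted p under 0.05 over all genes, with and without a 2-fold threshold. Lists are described by counts and medians and were not tested. The procedure was tested on simulated data. Alternatives were RLE, total-count and reference-gene scaling, TMM without ribosomal protein genes, no filter, filterByExpr, a replicate block, thinned libraries, fits of 2 doses, DESeq2 1.42.0 and each library left out. Ratios of paralogs used counts plus 0.5.

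The members, gene lists and tests were chosen with earlier results of these data known. Values in every library are given for the 6 members with the lowest and the 6 with the highest change at 100 against 0 µM, the S6 genes, pairs whose ratio did not overlap, and the 6 members called at 1 µM with the smallest adjusted p. From each list the 3 called genes with the smallest adjusted p at 100 µM were named. Other named members, and list genes in counts of 5 or fewer, were chosen after their values were seen. Shoot markers CAB1, LHCA1 and RBCS3B fell by 1.56, 0.84 and 0.95 on the log2 scale at 100 µM. Of the root markers, CASP1 and SHV2 fell by 2.01 and 2.66 and SHR rose by 1.06. Gene names, starts and promoter sequences came from RefSeq (TAIR10.1, all 60 members matched), whose gene models may differ from those used for counting. Protein families were set from the locus annotation in plant nomenclature.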

Additional observations from a re-analysis of the deposited data

How the results depend on the processing

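The direction of the members' median at 1, 10 and 100 against 0 µM was negative under every alternative run. Scaling moved its size. The medians were −0.67 at 1 µM, −1.59 at 10 µM and −2.10 at 100 µM with total counts, and −0.042 at 1 µM and −0.50 at 100 µM with the reference genes. Calls at least 2-fold lower numbered 49 and 52 at 10 and 100 µM with total counts, 3 and 7 with the reference genes, and 2 at 1 µM with DESeq2. Calls by the adjusted p numbered 34 (1 against 0 µM), 42 (10 against 1 µM) and 17 (100 against 10 µM) with total counts, and 4 (1 against 0 µM), 20 (100 against 0 µM) and 0 (100 against 10 µM) with the reference genes. In the same order, 20.6%, 34.1% and 6.11% of all genes were called lower with total counts. With the reference genes these shares were 2.32%, 8.81% and 1.69%. For 100 against 10 µM the members' calls numbered 5 with only the 2 doses in the fit and 5 with DESeq2, beside 4.87% and 4.68% of all genes. At 100 µM AT1G66580 turned to −0.72 with total counts, and AT1G72370, AT2G31610, AT3G09630, AT3G25520 and AT5G02870 turned to 0.21, 0.18, 0.34, 0.56 and 0.39 with the reference genes. The cause was not tested.

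With each library left out in turn, calls at least 2-fold lower ranged from 1 to 5, 4 to 9 and 22 to 32 at 1, 10 and 100 against 0 µM, and calls by the adjusted p from 3 to 9, 27 to 38 and 40 to 47. They ranged from 7 to 21 at 10 against 1 µM and from 0 to 12 at 100 against 10 µM. Medians ranged from −0.34 to −0.22, −0.82 to −0.62 and −1.19 to −0.90, and shares of counts from 2.57% to 2.85%, 1.70% to 1.87%, 0.844% to 0.966% and 0.664% to 0.711%. At 100 µM AT1G66580 ranged from −0.066 to 0.73 and AT3G25520 from −0.47 to 0.52. Leaving out replicate 1 of 0 and of 100 µM together, chosen after seeing the data, gave 3, 13 and 32 calls at least 2-fold lower at 1, 10 and 100 against 0 µM, 13 lower calls at 100 against 10 µM and 4 higher calls at 10 against 1 µM, with AT1G66580 at 0.74 at 100 µM.

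Replicate numbers are shared between doses, and the main fit did not pair the samples. Deviations of same-numbered libraries correlated at −0.069 to 0.211 (median 0.052), over 0.1 in 4 of 18 pairs. Those of differently numbered libraries correlated at −0.247 to 0.112 (median −0.038), over 0.1 in 1 of 36 pairs. Whether the numbers mark samples handled together was not tested. A replicate block gave 6 lower calls at 100 against 10 µM and 3 higher calls at 10 against 1 µM, and moved no other count of lower calls by over 1.5 times. Depth limits the 8 members under 10 CPM.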
